A study of Mus musculus with 6 samples.

Results

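Described here are 10 genes of the transforming growth factor beta (TGF-beta) system in cultured mouse muscle-derived stem/progenitor cells (MDSPCs). They are the ligand genes Tgfb1, Tgfb2 and Tgfb3, the receptor genes Tgfbr1, Tgfbr2 and Tgfbr3, and the latent TGF-beta binding protein genes Ltbp1, Ltbp2, Ltbp3 and Ltbp4. The genes were chosen by family name, and all 10 are among the 21485 gene identifiers shared by the 6 deposited matrices. MDSPCs are the slowly adhering cells left after muscle is dissociated with enzymes and the floating cells are moved repeatedly to new collagen-coated flasks. Single-cell RNA sequencing with a 3′ droplet kit was carried out on 6 populations, 3 of them from young and 3 from old mice, each grown in serum-rich proliferation medium. Each population is 1 sample and counts as 1 replicate. The labels call the samples biological replicates and name no strain, sex, age, genotype or treatment, and they do not say whether a population came from 1 mouse or from pooled mice. The comparison asks how the cells of old mice differ from those of young mice after growth in culture.

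TGF-beta ligands are secreted in a latent form, in which the mature dimer stays bound to its own propeptide. Latent binding proteins attach this complex to the extracellular matrix, from which integrins, proteases and thrombospondin can release it. Free ligand is bound by the type II receptor, which recruits and phosphorylates the type I receptor, and that kinase activates SMAD transcription factors. In skeletal muscle, TGF-beta is known for holding back myoblast differentiation and for driving matrix deposition in fibrosis.

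The stretches upstream of Ltbp2 and Tgfb2 are shown because Ltbp2 had the largest difference between old and young samples of the 10 genes, and Tgfb2 differed between cells with and without transcripts of the muscle regulator Myog. RefSeq promoters (assembly GRCm38.p6) were matched for 8 of the 10 genes, all but Tgfb3 and Tgfbr3. The search covered the 250 bases before the start and used both strands. Capitals mark E-boxes (CANNTG), the general motif of the helix-loop-helix factors, and whether myogenic members of that family bind these boxes was not tested.
Ltbp2, chr12:84876533-84876741, minus strand, the 209 bases before the first annotated exon: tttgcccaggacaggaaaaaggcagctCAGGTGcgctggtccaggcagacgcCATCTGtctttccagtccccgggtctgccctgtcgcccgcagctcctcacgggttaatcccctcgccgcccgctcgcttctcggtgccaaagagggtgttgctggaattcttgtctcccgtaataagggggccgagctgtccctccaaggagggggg
Tgfb2, chr1:186705990-186706239, minus strand, 250 bases: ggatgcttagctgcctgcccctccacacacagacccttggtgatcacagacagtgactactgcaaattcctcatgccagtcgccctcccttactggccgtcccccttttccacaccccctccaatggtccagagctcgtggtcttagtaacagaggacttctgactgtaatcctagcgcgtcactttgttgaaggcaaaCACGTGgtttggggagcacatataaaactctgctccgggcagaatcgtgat
The 250 bases before Ltbp2 held 2 E-boxes, both in the stretch printed, and those before Tgfb2 held 1. Of 27025 RefSeq promoters of 250 bases, 66.0% hold at least 1 and 31.7% at least 2. Each also held 2 copies of CAGAC, the core of the SMAD binding element, of which 42.1% of promoters hold at least 1 and 11.7% at least 2. Tgfb2 had 1 match to TATAAA, found in 13.0% of promoters. Neither had TGANTCA, the AP-1 motif, found in 6.87%.

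The filters left 61673 cells of 62849 barcodes, between 8674 and 12541 per sample, with a median depth of 13001 to 19951 unique molecular identifiers (UMIs) per cell. Libraries shared between 0.254% and 0.375% of their cell barcodes. Replicate 1 of each group was counted on a shorter list of 21849 features and the other 4 samples on a longer list of 32285, so the list entered the model as a term. The share of cells scored as cycling from their phase genes ran from 35.7% in old replicate 2 to 81.4% in young replicate 3. The myogenic markers fixed for the check summed to between 265 and 3687 CPM per sample, where CPM is the UMIs of a gene per 1000000 UMIs of the sample. Of this list, Pax7 was at 0.0265 CPM in young replicate 3, Myf5 at 0.00748 CPM in young replicate 1 and Pax3 at 0.264 CPM in young replicate 2. The lowest other value was 2.69 CPM, of Des in young replicate 3. The 6 endothelial, 8 leukocyte and 4 Schwann cell markers summed to at most 8.27 CPM in each sample, except for 59.4 CPM of endothelial markers in young replicate 2, nearly all of it Tek. The fibro-adipogenic list summed to between 283 and 511 CPM, carried by Gsn, Col3a1, Cd34, Ly6a and Smoc2, while Lum and Dpt were at or near 0, Dcn was at most 1.49 CPM and Pdgfra at most 1.97 CPM. The 6 smooth muscle and pericyte markers summed to between 38.4 and 1490 CPM, most of it Acta2, and Myh11 was at most 1.11 CPM. The 3 tenocyte markers summed to between 125 and 304 CPM, most of it Scx, and Tnmd was at or near 0. The part of such cells in the levels below was not tested.

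All 10 genes were detected in every sample and all passed the filter on low counts. In the edgeR quasi-likelihood test of old against young samples, adjusted over 14512 genes by the Benjamini-Hochberg method, 0 of the 10 passed an adjusted p of 0.05, against 0.00689% of all genes (1 gene). At an unadjusted p under 0.05 the test gave 1 of the 10, Ltbp2, against 3.53% of all genes. With some single samples left out, other genes also reached an unadjusted edgeR p under 0.05. Tgfb1 was added without old replicate 3 (0.00840), and Tgfb2 without young replicate 1 (0.0194) or old replicate 1 (0.0191). The last 2 fits are in effect 1 comparison. With the replicate 1 sample of either group left out, the list term takes up the other, and the 4 samples on the longer list remain. The 3.53% belongs to the fit of all 6 samples, and the share in the other fits is not given here. DESeq2 called 1 of the 10, again Ltbp2, against 1.51% of all genes. The median log2 fold change of the 10 genes was -0.44, beside -0.01 over all genes, with 4 values above 0 and 6 below. Levels are given as unscaled CPM in the order of replicates 1, 2 and 3, and since a 3′ tag counts 1 end of each molecule, they are not divided by transcript length.

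Among the ligands, Tgfb1 had the most UMIs in every sample. Tgfb1 (chr7:25687002-25705077, plus strand), the most widely made isoform, stood at 46.0, 30.0 and 32.3 CPM in young populations. In the old samples it stood at 30.4, 13.8 and 24.5 CPM. The lowest young sample, at 30.0 CPM, lay just under the highest old sample, at 30.4 CPM, so the groups overlapped. They did not overlap after scaling by the trimmed mean of M values (TMM), where the young samples had 54.2, 30.1 and 29.9 and the old samples 27.5, 13.2 and 25.9. Among all genes, 2.42% had all old samples below all young samples after scaling. The fitted log2 fold change was -0.74 ± 0.30 (SE), with an unadjusted p of 0.0542 and an adjusted p of 1.00 in edgeR.

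Tgfb2 (chr1:186622792-186705989, minus strand), the isoform with a leading part in development, stood at 2.68, 14.7 and 14.8 CPM in young populations against 3.73, 7.22 and 4.47 CPM in old populations. Young replicate 1 was the lowest of all 6, while the other 2 young samples were the highest, so the groups overlapped. The log2 fold change was -0.84 ± 0.40, and it was -0.55 without old replicate 3. Without replicate 1 of either group, which leaves the comparison on the longer gene list, it was -1.29. Tgfb3 (chr12:86056745-86079041, minus strand), the third isoform, stood at 5.34, 10.3 and 12.1 CPM in young populations against 5.82, 12.7 and 12.3 CPM in old populations. Its log2 fold change was 0.07 ± 0.25, and in both groups the sample on the shorter gene list was the lowest. The 3 ligands together summed to 54.0, 55.0 and 59.2 CPM in young populations against 40.0, 33.8 and 41.2 CPM in old populations. The sum did not overlap between the groups, and Tgfb1 was its largest part in every sample. It was a combination looked at after the values were known, has no share over all genes to set beside it, and was not tested.

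The mix of ligands differed from sample to sample. Tgfb1 made up 85.1%, 54.5% and 54.6% of ligand UMIs in young populations against 76.1%, 40.9% and 59.3% in old populations. Tgfb3 made up 9.89%, 18.7% and 20.4% in young populations against 14.6%, 37.7% and 29.8% in old populations. Old replicate 2 was the sample where Tgfb3 came closest to Tgfb1. The 95% Wilson intervals of these shares reached at most 1.24 percentage points to either side and cover counting error only.

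**Figure D1:**
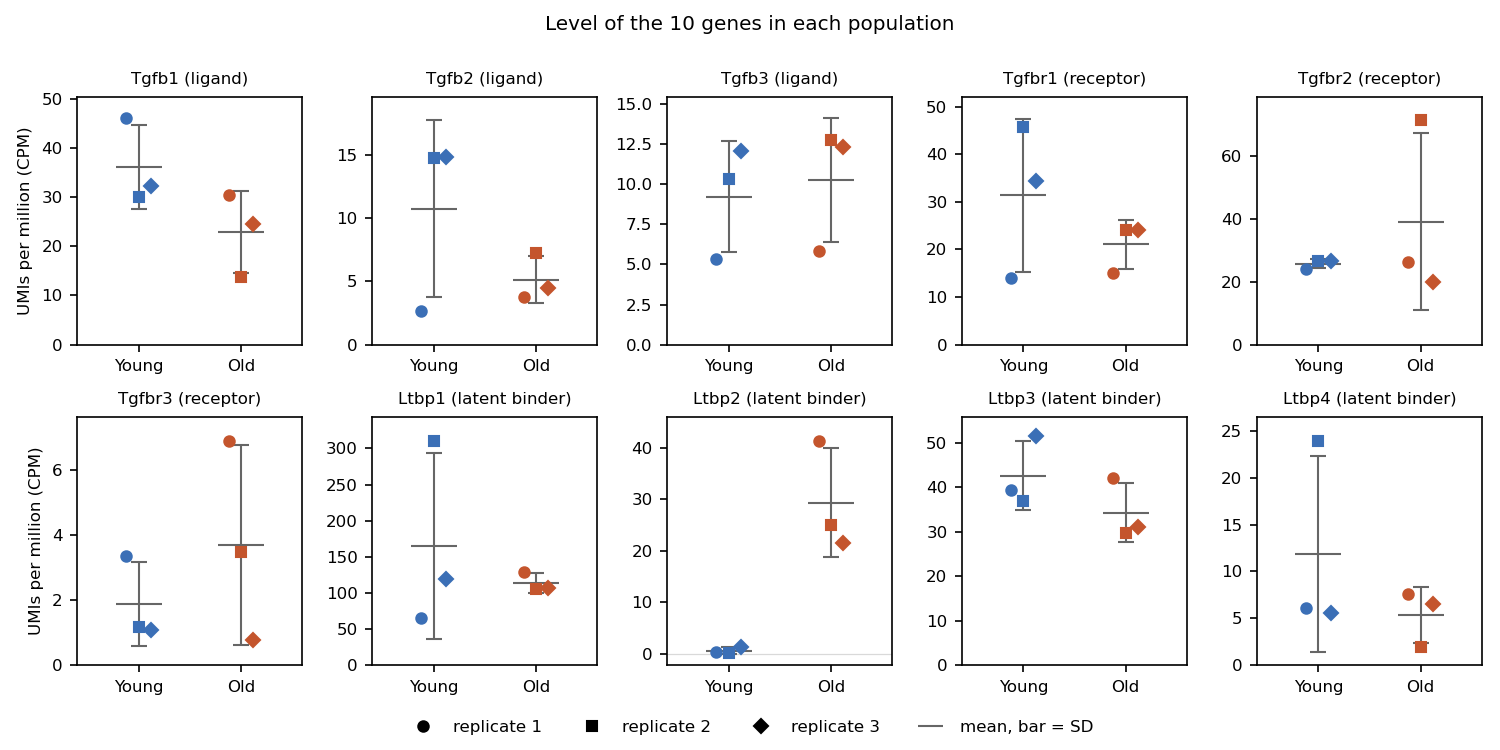
Unscaled CPM of the 10 genes (vertical axes, each from 0 or just below) in the 3 young and 3 old samples, with marker shapes for the replicate, the group mean as a line and the SD as a bar. Ltbp2 is the gene whose old samples, at 21.6 to 41.3 CPM, all lie far above the young samples, at 0.171 to 1.43 CPM.

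The receptors showed large differences between populations of the same group. Tgfbr1 (chr4:47353222-47414931, plus strand), the type I receptor kinase, stood at 13.9, 45.7 and 34.5 CPM in young populations against 15.05, 24.1 and 24.1 CPM in old populations. The log2 fold change was -0.54 ± 0.24, or -0.35 without young replicate 2, and the groups overlapped. In young replicate 2, the highest sample, the genes of 10 CPM or more within 2 Mb of Tgfbr1 had a median 0.49 above their own median over the 6 samples on the log2 scale, with each sample centred on its median. The same neighbours stood at -0.28 and -0.17 in young and old replicate 1, the lowest samples of each group. They stood at -0.02 in young replicate 3 and at 0.01 and -0.14 in old replicates 2 and 3. The part of these shifts in the Tgfbr1 values was not tested. Tgfbr2 (chr9:116084293-116175360, minus strand), the type II receptor that binds the ligand first, stood at 24.03, 26.6 and 26.5 CPM in young populations, a narrow range. The old samples had 26.1, 71.3 and 19.8 CPM, with old replicate 2 alone far above the rest. Its log2 fold change was 0.45 ± 0.50, and without old replicate 2 it was -0.28.

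Tgfbr3 (chr5:107106570-107289629, minus strand), the co-receptor betaglycan that presents ligand to the type II receptor, was the least abundant receptor in every sample. It stood at 3.36, 1.17 and 1.08 CPM in young populations against 6.88, 3.46 and 0.750 CPM in old populations, with a log2 fold change of 0.83 ± 0.63. The highest and lowest of the 6 samples were both old, and the log2 fold change was 0.03 without old replicate 2 and 1.21 without old replicate 3. In old replicate 2 the 516 genes of chromosome 5 with 10 CPM or more had a median shift of 0.26 on the centred log2 scale used for Tgfbr1. The 19 within 2 Mb of Tgfbr3 had 0.09, and the part of these shifts in the Tgfbr3 value was not tested. Tgfbr1 made up 33.7%, 62.2% and 55.5% of receptor UMIs in young populations against 31.3%, 24.3% and 54.0% in old populations. Tgfbr2 led in young replicate 1 and in old replicates 1 and 2, and Tgfbr1 led in the other 3 samples.

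Among the latent binders, Ltbp1 was the most abundant gene in every sample and Ltbp2 had the largest difference with age. Ltbp1 (chr17:75005568-75392512, plus strand), which binds the latent complex, stood at 64.8, 311 and 119 CPM in young populations against 129, 105 and 106 CPM in old populations. The old samples were close to each other, and the young samples bracketed them on both sides. The log2 fold change was -0.47 ± 0.53, and without young replicate 2 it was 0.22. Ltbp3 (chr19:5740904-5758532, plus strand), which also binds the latent complex, had the lowest ratio of highest to lowest sample of the 10 genes, with 39.4, 37.0 and 51.6 CPM in young populations against 42.0, 29.8 and 31.2 CPM in old populations. Its log2 fold change was -0.41 ± 0.20. Ltbp4 (chr7:27305136-27337692, minus strand), known for its part in elastic fibre assembly, stood at 6.05, 23.9 and 5.57 CPM in young populations against 7.59, 1.94 and 6.48 CPM in old populations. Young replicate 2 and old replicate 2 were its extremes, and its log2 fold change was -1.19 ± 0.83. Without young replicate 2 it was -0.17, and without old replicate 2 it was -0.64. Without young replicate 1, which leaves the comparison on the longer gene list, it was -1.74.

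Ltbp2 (chr12:84783212-84876532, minus strand) is a matrix protein of the microfibrils that, unlike the other family members, does not bind latent TGF-beta. It was counted 45, 33 and 270 times in young populations, which is 0.337, 0.171 and 1.43 CPM. In the old samples it was counted 6259, 4445 and 3942 times, which is 41.3, 25.03 and 21.6 CPM. Every old sample was above every young sample, both unscaled and after TMM scaling. After scaling this held for 3.63% of all genes. The group means were 0.646 ± 0.684 CPM in young populations against 29.3 ± 10.6 CPM in old populations (SD, n = 3 each), a ratio of 45.4.

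The fitted log2 fold change of Ltbp2 was 5.47 ± 0.91, with an unadjusted p of 0.00122 and an adjusted p of 0.585 in edgeR, so it did not pass that test. DESeq2 gave the same fold change with an adjusted p of 4.03e-09. Among 14512 genes, Ltbp2 ranked 30 by p and 58 by fold change upward. The young samples were spread as well as low: without young replicate 3, whose level was the highest of the young, the log2 fold change was 6.85 and the edgeR adjusted p was 0.0343. Over all 15 alternatives the log2 fold change lay between 4.97 and 6.85 and was positive in each, and the adjusted p lay between 4.03e-09 and 1.00, under 0.05 in 2 of them. The alternatives are not all distinct, since leaving out replicate 1 of either group repeats the comparison on the longer gene list alone.

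The genes near Ltbp2 on chromosome 12 did not share its difference. The 24 tested genes within 2 Mb with a mean of 10 CPM or more had a median log2 fold change of -0.01, with a range from -1.40 to 0.54. Tgfb3 lies 1180213 bases away and had a log2 fold change of 0.07. The first exon of the antisense RNA gene D030025P21Rik overlaps that of Ltbp2 and covers the upstream stretch printed above, and it is on the longer gene list only. It was looked at after the Ltbp2 values were known. D030025P21Rik had 1 and 16 UMIs in young replicates 2 and 3, and 604 and 715 UMIs in old replicates 2 and 3. In the 4 samples that list both genes, the antisense gene was therefore low where Ltbp2 was low and higher where Ltbp2 was higher. Whether the counting used strand is not given in the sources used here, and the part of reads from the overlapping exons in either count was not tested.

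The mix of latent binders differed between the groups in its share of Ltbp2. The class is one of family name, since Ltbp2 itself does not bind latent TGF-beta. Ltbp2 made up 0.305%, 0.0459% and 0.806% of latent binder UMIs in young populations against 18.8%, 15.5% and 13.0% in old populations. Ltbp1 remained the leading gene, with 58.6%, 83.6% and 67.0% in young populations against 58.6%, 64.9% and 64.2% in old populations. Ltbp3 made up between 9.96% and 35.6% in young populations against between 18.4% and 19.1% in old populations. The Wilson intervals reached at most 0.794 percentage points to either side.

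**Figure D2:**
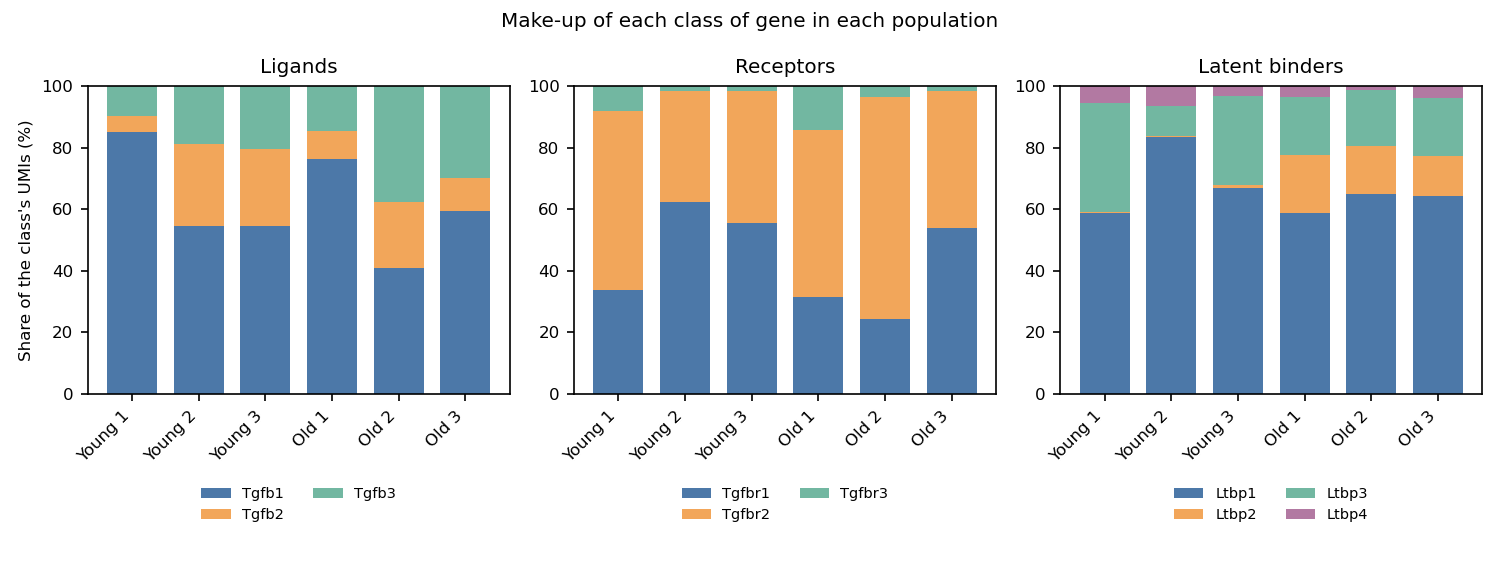
Stacked bars give the share of UMIs (vertical axis, percent) that each gene took of the 3 ligand, 3 receptor and 4 latent binder genes in each of the 6 samples. The Ltbp2 band is barely visible in young populations, at most 0.806%, and takes 13.0% to 18.8% in old populations.

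The samples on the longer and the shorter gene list were also compared separately, although the shorter list has 1 sample per group. Ltbp2 was higher in old samples on both lists, by 4.97 on the log2 scale on the longer and by 6.55 on the shorter list. Tgfb1 was lower on both, at -0.62 and -0.98. The sign differed between the lists for Tgfb2 (-1.29 on the longer and 0.09 on the shorter), Tgfb3 (0.23 and -0.26), Tgfbr2 (0.80 and -0.27) and Ltbp1 (-0.98 and 0.60). The interaction of age with list passed an edgeR adjusted p of 0.05 for none of the 10 genes and for 0% of all genes, with 5.25% of all genes at an unadjusted p under 0.05. DESeq2 was not run on the interaction.

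The share of cells with a UMI was counted beside the level, which largely sets this share when a gene has few UMIs per cell. Cells were thinned to 5000 UMIs each so that depth did not set the share, which left out 539 young and 829 old cells that were shallower. Ltbp2 was found in 0.107%, 0.141% and 0.837% of thinned cells in young populations and in 18.1%, 11.2% and 6.47% in old populations. Without thinning it was found in 0.519%, 0.305% and 2.33% of young and in 40.4%, 34.1% and 15.1% of old cells. The thinned means differed by 11.5 percentage points (two-sided exact permutation test, p = 0.1, the smallest that 3 samples against 3 can give; adjusted over the 10 genes, p = 0.857). Every old sample was above every young sample on both measures, for which no share over all genes was counted. No cell type that should lack the gene was present to measure the background from free RNA, and the young samples give the lowest level seen.

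Ltbp1 was carried by the most cells, 25.9% to 69.8% of thinned cells across the 6 samples, and was first in each of them. Ltbp3 was found in 12.7% to 22.2%. Tgfb1 was found in 19.8%, 13.8% and 15.1% of thinned cells in young populations against 13.8%, 6.63% and 11.0% in old populations (exact permutation test, p = 0.2). The thinned groups overlapped, with 13.80% in young replicate 2 and 13.82% in old replicate 1. Without thinning the Tgfb1 shares were 45.03%, 37.3% and 39.3% in young populations against 33.4%, 22.5% and 26.2% in old populations. These did not overlap (exact permutation test, p = 0.1, the smallest possible), but unthinned shares also depend on depth. How many of all genes did not overlap in their share of cells was not counted. Tgfbr3 was the rarest receptor, in 0.304% to 3.02% of thinned cells. The exact p of the other genes was between 0.3 and 0.9, and none could pass 0.05 in this design.

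The observed shares were also set beside the share expected if the UMIs of a gene fell on cells in proportion to their depth. For the 57 of 60 pairs of gene and sample with at least 200 UMIs, the observed share was between 0.577 and 0.991 times that expected, and 6 pairs were under 0.9. They were Tgfb2 in young replicates 2 and 3 and old replicate 2, Ltbp2 in old replicates 2 and 3, and Ltbp3 in old replicate 3. The lowest was Ltbp2 in old replicate 3, found in 15.1% of cells where an even spread would give 26.1%, with up to 46 UMIs in 1 cell. In old replicates 1 and 2 the observed 40.4% and 34.1% stood beside 44.2% and 39.0%, with at most 10 and 9 UMIs in a cell. Ltbp2 UMIs were thus spread over much of the population in old replicates 1 and 2 and were concentrated in fewer cells in old replicate 3.

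**Figure D3:**
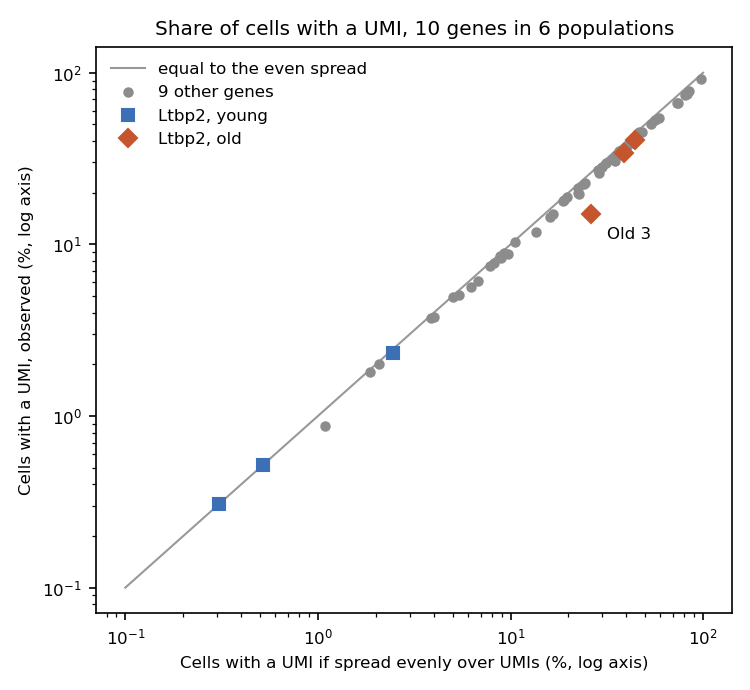
Observed share of cells with a UMI (vertical, percent, log axis) against the share expected from an even spread over UMIs (horizontal, percent, log axis), 1 point per gene and sample. Most points lie close to the line of equality, and Ltbp2 in old replicate 3 lies below it, at 15.1% observed and 26.1% expected.

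The cells that carried Ltbp2 in old replicate 3 were examined through Col1a2, a fibrillar collagen gene and TGF-beta response gene. This split was chosen after the data were seen. Cells with at least 1 Col1a2 UMI numbered 1023, 658 and 427 in old replicates 1, 2 and 3, or 10.1%, 7.54% and 3.40% of kept cells, and 23, 23 and 89 in young populations. In old replicate 3 these cells held 6.49% of all UMIs but 50.2% of Ltbp2 UMIs. Ltbp2 stood at 167 CPM in them (95% Poisson interval 159 to 174, counting error only) and at 11.5 CPM (11.0 to 12.03) in the other cells. In old replicate 1 it stood at 35.3 and 42.2 CPM in cells with and without Col1a2, and in old replicate 2 at 30.7 and 24.5 CPM. The concentration of Ltbp2 in these cells was thus seen in 1 of the 3 old samples, and each comparison is within 1 library.

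In the same 427 cells of old replicate 3, most other genes of the family were also above their level in the remaining cells. Tgfbr3 stood at 8.77 CPM (7.16 to 10.6) against 0.193 CPM (0.133 to 0.271), and 75.9% of its UMIs lay in these cells. Ltbp3 stood at 82.3 against 27.6 CPM, Ltbp4 at 15.9 against 5.83 CPM, Ltbp1 at 170 against 102 CPM, and Tgfb1 at 43.6 against 23.1 CPM. Tgfb2 stood at 7.84 against 4.23 CPM and Tgfbr2 at 29.7 against 19.1 CPM. Tgfb3 was level, at 12.9 CPM (10.9 to 15.1) against 12.2 CPM (11.7 to 12.8), and Tgfbr1 was lower, at 15.5 against 24.7 CPM. The TGF-beta response gene Ccn2, a matrix-associated growth factor, stood at 287 CPM in these cells and at 3.93 CPM in the rest. The myogenic regulators Myod1 and Myog stood at 308 against 951 CPM and at 358 against 974.7 CPM. The collagen gene Col1a1 stood at 137 against 1.22 CPM, and the fibroblast marker Pdgfra at 3.96 against 0.0761 CPM, on 47 and 13 UMIs. Lum, another marker of the fibro-adipogenic list, had 1 UMI in the cells with Col1a2. In old replicate 1 several of these genes were lower in cells with Col1a2, with Tgfbr3 at 3.60 against 7.31 CPM, Ccn2 at 19.9 against 31.4 CPM and Pdgfra at 0.956 against 2.10 CPM. In old replicate 2 Tgfbr3 stood at 4.63 against 3.35 CPM, Ccn2 at 1.72 against 2.32 CPM and Pdgfra at 0.265 against 0.339 CPM. Among cells deep enough for thinning, those with Col1a2 in old replicate 3 had a median of 27482 UMIs against 12886 in the others, whereas the medians in old replicate 1 were 15220 and 13505. Doublets were not removed, and their part in these cells was not tested. With all cells that carried Col1a2 left out, the log2 fold change of Ltbp2 in old against young samples was 5.22 ± 1.01 (edgeR adjusted p = 0.9502).

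**Figure D4:**
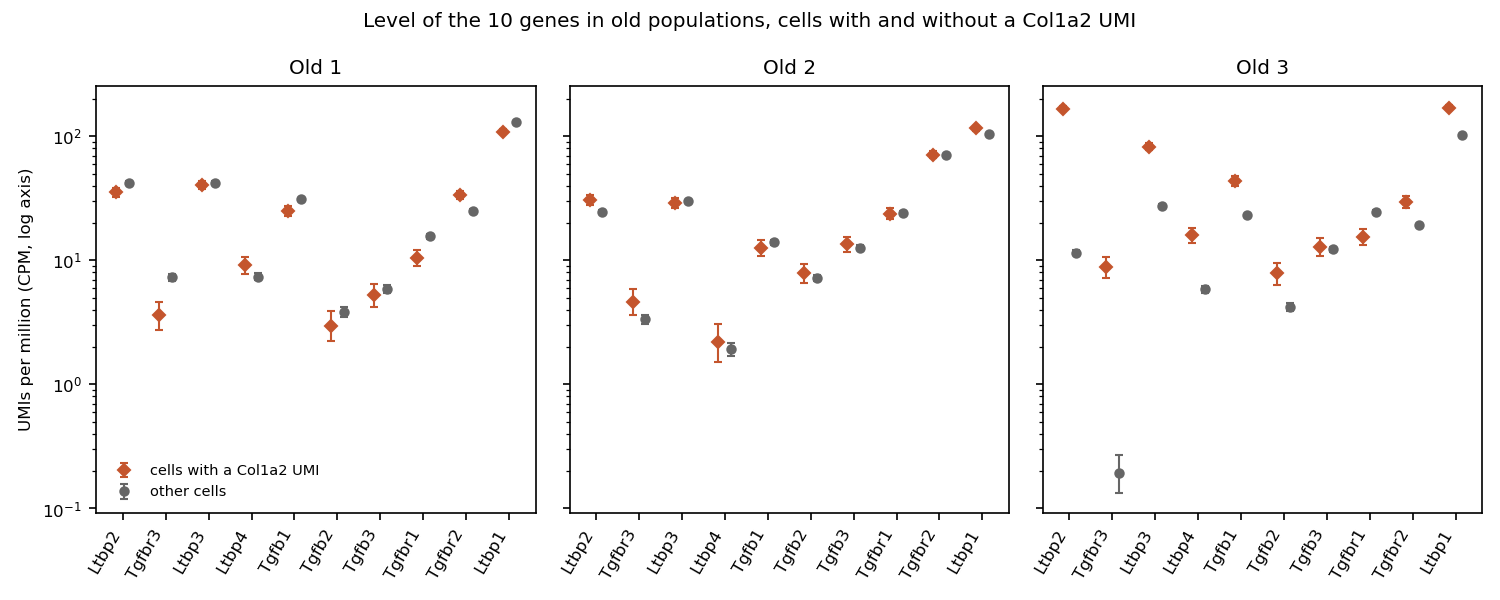
CPM of the 10 genes (vertical, log axis) in cells with a Col1a2 UMI and in the other cells of the 3 old samples, with 95% Poisson intervals as bars. In old replicate 3, Ltbp2 and Tgfbr3 lie far apart between the classes, at 167 against 11.5 CPM and 8.77 against 0.193 CPM, and in old replicates 1 and 2 most genes lie close together.

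The genes were next compared between cells with and without detected transcripts of Myog, the transcription factor that starts terminal muscle differentiation. Cells with 3 or more Myog UMIs at 5000 UMIs were set against cells with 0 in the same sample, where 0 at this depth does not show that a cell lacks the transcript, and old replicate 1, with 29 positive cells, was left out. The positive cells numbered 164, 1322 and 176 in young populations and 683 and 3819 in old replicates 2 and 3, and a further 142 to 1782 cells per sample had 1 or 2 Myog UMIs and were in neither class. Fitted with edgeR with the sample as a block, 2 of the 10 genes rose and 4 fell in Myog-positive cells. Among the 13279 genes tested, 15.7% rose and 24.6% fell, 40.3% in all, so calls were common in this contrast. Levels below are TMM-scaled CPM in young replicates 1, 2 and 3 and old replicates 2 and 3.

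Among the ligands, Tgfb2 and Tgfb3 rose. Tgfb2 stood at 2.81, 11.8, 13.2, 6.19 and 3.44 in Myog-negative cells and at 12.9, 30.4, 29.0, 10.5 and 7.38 in Myog-positive cells. It was higher in the positive cells of all 5 samples, with a log2 fold change of 1.24 ± 0.18 (edgeR adjusted p = 0.00162). Tgfb3 stood at 5.23, 7.73, 10.9, 10.8 and 7.06 in negative and at 47.6, 25.9, 21.5, 20.8 and 24.5 in positive cells. It too was higher in all 5 samples, by 1.70 ± 0.33 (edgeR adjusted p = 0.00936), and every positive value was above every negative one. Tgfb1 was lower in 4 of 5 samples and did not pass the test, at -0.39 ± 0.21 (edgeR adjusted p = 0.188). Without young replicate 2, the sample where it was higher, Tgfb1 was at -0.66 with an edgeR adjusted p of 0.0101.

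The co-receptor and Ltbp1 fell. Tgfbr3 stood at 3.87, 1.27, 0.997, 3.40 and 1.19 in negative cells and at 0, 0.532, 0.683, 0.833 and 0.173 in positive cells. It was lower in all 5 samples, by -2.03 ± 0.39 on the log2 scale (edgeR adjusted p = 0.00542), on 0 to 12 UMIs per sample in the positive cells. In old replicate 3, where most Tgfbr3 UMIs lay in cells with Col1a2, the level outside those cells was 0.193 CPM, and without this sample the log2 fold change was -1.74 (edgeR adjusted p = 0.0239). Ltbp1 stood at 73.4, 325, 111, 96.8 and 123 in negative and at 44.6, 186, 47.5, 76.6 and 89.7 in positive cells, a log2 fold change of -0.70 ± 0.13 (edgeR adjusted p = 0.00445), lower in all 5 samples. Ltbp4 fell by 0.62 on the log2 scale (edgeR adjusted p = 0.0224, lower in 4 of 5 samples), with -0.84 to -0.33 over 9 alternatives. That call was lost without young replicate 2, without old replicate 3 and with 1 or more Myog UMIs as the rule. In old replicate 3 the cells with Col1a2, where Myog stood at 358 CPM against 974.7 CPM in the rest, had the higher Ltbp1 and Ltbp4 levels given above, and their part in these calls was not tested. Tgfbr2 fell by 0.36 (edgeR adjusted p = 0.0470, lower in 5 of 5 samples), with -0.45 to -0.12 over the alternatives. Its call was lost in 8 of 9 of them and held without young replicate 2 alone.

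Tgfbr1, Ltbp2 and Ltbp3 did not pass, with log2 fold changes of 0.06 ± 0.13, -0.67 ± 0.60 and -0.10 ± 0.13. For Ltbp2 the positive cells of the young samples held only 1, 5 and 15 UMIs. Its level there was 0.368, 0.132 and 1.27 in negative and 0.587, 0.222 and 5.12 in positive cells, higher in the positive cells of each, unlike in the old samples. In old replicates 2 and 3, where it was abundant, Ltbp2 stood at 24.1 and 29.2 in negative and at 9.92 and 10.4 in positive cells. In old replicate 3 its level outside the cells with Col1a2 was 11.5 CPM, and Col1a2 itself stood at 26.5 in negative and 6.38 in positive cells. The part of the cells with Col1a2 in these differences was not tested. Its log2 fold change was -1.19 without young replicate 3 (edgeR adjusted p = 0.0247) and 0.07 without old replicate 3. Cells of the Myog-positive class were less often scored as cycling, 9.76%, 27.1%, 51.7%, 5.56% and 44.8% of them against 52.8%, 64.2%, 81.9%, 39.9% and 70.0% of negative cells, and the part of the cell cycle in these differences was not tested.

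Between cycling cells, scored as S or G2/M, and non-cycling cells of all 6 samples, 1 of the 10 genes rose and 4 fell. Of the 13294 genes tested, 22.4% rose and 29.5% fell, 51.9% in all. Tgfb2 was lower in cycling cells of all 6 samples, with a log2 fold change of -0.73 ± 0.12 (edgeR adjusted p = 0.00086). Its scaled CPM was 4.25, 21.4 and 20.9 in non-cycling and 2.15, 11.4 and 12.4 in cycling cells of the young samples, and 4.18, 7.25 and 7.39 against 3.16, 6.19 and 3.39 in old populations. Young replicates 2 and 3 were the highest of the 6 in both classes. Tgfb3 fell by 0.60 on the log2 scale (edgeR adjusted p = 0.00777, the largest difference in old replicate 3 with 20.6 against 9.23). In old replicate 1 Tgfb3 was level, at 5.29 in non-cycling and 5.33 in cycling cells, and it was lower in cycling cells of the other 5 samples.

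Tgfbr2 was lower in cycling cells of all 6 samples, at -0.43 ± 0.06 (edgeR adjusted p = 0.000356), with 33.7, 32.2 and 29.7 in non-cycling and 23.2, 24.4 and 23.6 in cycling cells of the young samples. Old populations had 31.1, 78.3 and 22.8 in non-cycling and 21.6, 51.1 and 20.2 in cycling cells. Ltbp3 fell by 0.26 (edgeR adjusted p = 0.00222). Tgfbr3 rose by 0.37 ± 0.10 (edgeR adjusted p = 0.0128) and was higher in all 6 samples. The 5 genes that did not pass, Tgfb1, Tgfbr1, Ltbp1, Ltbp2 and Ltbp4, had log2 fold changes between 0.02 and 0.16. Ltbp2 was at 39.9, 23.5 and 20.7 in non-cycling and at 37.1, 24.4 and 23.9 in cycling cells of the old samples, lower in the cycling cells of replicate 1 and higher in those of replicates 2 and 3. Cycling cells were deeper in every sample, with medians of 14201 to 21122 UMIs against 11563 to 19350, and the calls of Tgfb2, Tgfb3, Tgfbr2, Tgfbr3 and Ltbp3 also passed with counts thinned to 5000 UMIs.

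**Figure D5:**
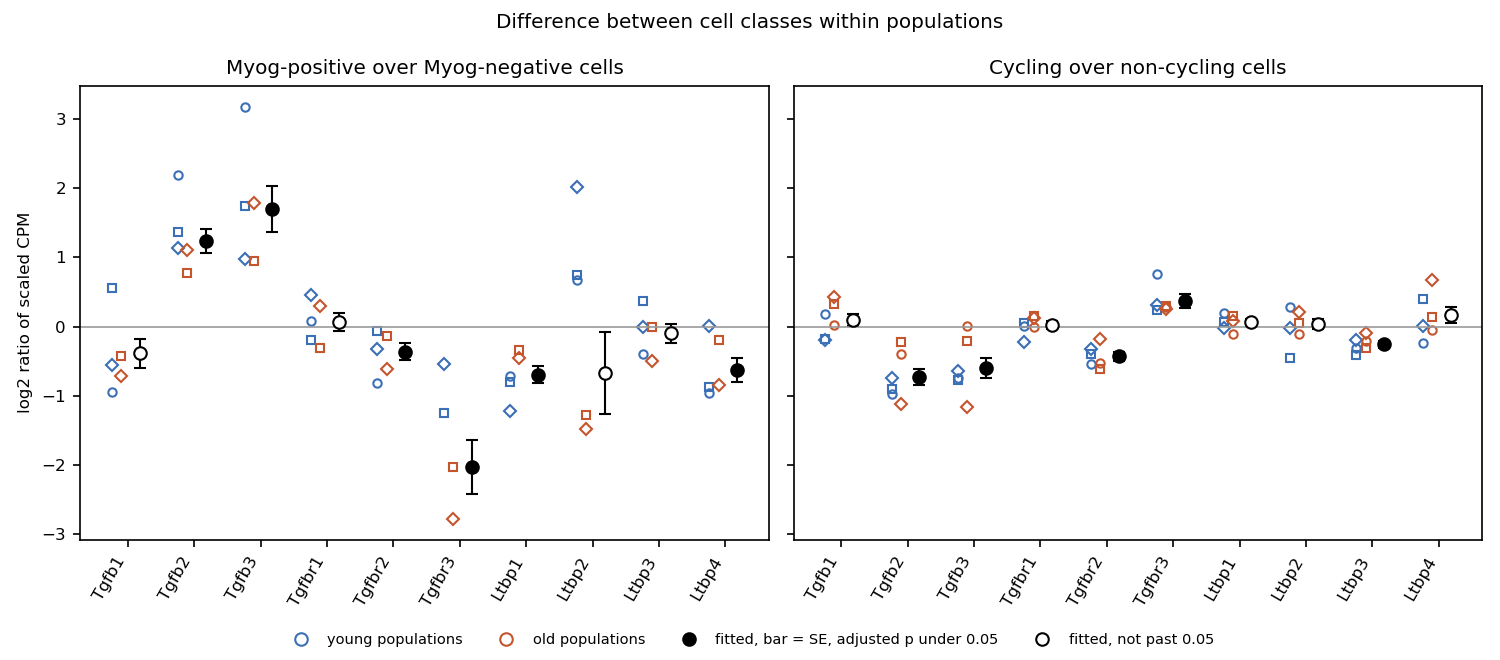
Log2 ratio of TMM-scaled CPM (vertical axis) for the 10 genes in Myog-positive over Myog-negative cells (5 samples) and in cycling over non-cycling cells (6 samples). Open coloured symbols are single samples with marker shapes for the replicate as in the plot of levels, the black symbol is the fitted value with its SE as a bar, and the Tgfbr3 point of young replicate 1, at 0 UMIs in positive cells, is not drawn. Tgfb2 and Tgfb3 lie above 0 in Myog-positive cells, at 1.24 and 1.70, and below 0 in cycling cells, at -0.73 and -0.60.

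A list of 50 other genes of the pathway, covering co-receptors, SMADs and their regulators, activators of the latent complex and response genes, was examined in the same fits. In old against young samples 0 of the 50 passed in edgeR, 2 were higher and 1 lower at an unadjusted p under 0.05 (3.53% of all genes), and DESeq2 called those 3 (1.51% of all genes). The median log2 fold change was -0.09, with 21 values above 0 and 29 below. The 4 genes whose groups did not overlap after TMM scaling were Col1a2 and Mmp2, above in old populations, and Cdkn2b and Smad4, below. The unscaled CPM of Smad4 overlapped, at 44.4, 55.9 and 56.8 in young populations against 55.02, 45.8 and 36.1 in old populations. After scaling, the groups did not overlap for 6.05% of all genes. Col1a2 stood at 0.221, 0.119 and 0.455 in young populations against 19.8, 7.15 and 18.5 scaled CPM in old populations, a log2 fold change of 5.80 ± 0.78 (adjusted p = 0.366 in edgeR and 7.52e-14 in DESeq2). Cdkn2b, a cell cycle inhibitor that TGF-beta induces, stood at 113, 46.5 and 66.3 in young populations against 27.8, 12.2 and 17.1 in old populations, a log2 fold change of -1.97 ± 0.25 (adjusted p = 0.347 in edgeR and 4.72e-08 in DESeq2). Mmp2, a gelatinase, and Smad4, the common SMAD, had log2 fold changes of 2.29 ± 1.20 and -0.30 ± 0.19. Col1a1, the third gene called by DESeq2, had a log2 fold change of 5.60 ± 2.19, and 1829 of its UMIs were in old replicate 3, against 2 to 43 in each other sample.

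Within samples, 47 of the 50 could be tested between Myog classes, where 5 rose and 23 fell in Myog-positive cells, beside 15.7% and 24.6% of all genes. Their median log2 fold change was -0.53, against -0.10 over all genes. The genes that rose were Acta2 (3.42 ± 0.18), the smooth muscle actin that is also made early in muscle differentiation, Itgb6 (2.51 ± 0.32), an integrin subunit that activates latent TGF-beta, Skil, Furin and Id1. Those that fell with the lowest edgeR adjusted p included Tsc22d1, Mmp14, Ccn2, Smurf1 and Smad7. Ccn2 had a log2 fold change of -2.14 ± 0.27. Of the 13 response genes tested, 2 rose (Acta2 and Id1), 7 fell and 4 did not pass the test.

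Between cycling classes, 49 of the 50 were tested, 3 rose and 12 fell in cycling cells, beside 22.4% and 29.5% of all genes, with a median log2 fold change of -0.14 against -0.05 over all genes. Bambi, a decoy receptor that lacks the kinase domain, rose by 0.80 ± 0.13, and Smad4 and Fbn1 rose by 0.18 and 0.38. The 6 that fell with the lowest edgeR adjusted p were Itgb5, Acta2, Cdkn2b, Thbs1, Ccn1 and Emilin1, with log2 fold changes between -1.41 for Acta2 and -0.25 for Ccn1.

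Finally, the genes whose levels over the 6 samples were most like the ligand, the receptor and the latent binder with the highest mean CPM over the 6 samples were listed among 7977 genes of 10 CPM or more, by Pearson's r of log2(CPM + 1), as a description with no test. For Tgfb1 they were Rplp2 (0.961), Rps20 (0.952) and Ptprn (0.945), and 12 genes had an r above 0.9. For Tgfbr2 they were Sap30l (0.995), Chm (0.988) and Slc30a9 (0.983), with 118 genes above 0.9. Old replicate 2 was the sample where Tgfbr2 was highest, and Tgfbr1 was above it in 3 of the 6 samples. For Ltbp1 they were Cntln (0.989), Dars (0.987) and Ptbp3 (0.984), with 90 genes above 0.9, and young replicate 2 was the sample where Ltbp1 was highest.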

How the data were processed

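Cells of 6 samples, 3 young and 3 old, were profiled with the 10x 3′ kit. The authors deposited raw UMI counts per gene and barcode, whole numbers with no normalization, made with Cell Ranger 7.0.0 (replicate 1 of each group) or 7.2.0 (the others), per the file headers. The genome build was mm10, per the submitters' processing notes, and coordinates are from GENCODE vM21 on GRCm38, the same assembly. The rule for calling cells and the handling of intronic reads and strand are not given in the sources used here. Both affect levels, because intronic reads and free RNA add UMIs.

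Barcodes with 1000 UMIs, 500 genes and under 15% mitochondrial UMIs passed as cells. No doublets were removed. Counts were summed per sample over the shared identifiers and tested with edgeR 4.0.16 (TMM scaling, filterByExpr, two-sided quasi-likelihood F test in its robust form, Benjamini-Hochberg over all genes at 0.05) with terms for group and gene list, and with DESeq2 1.42.0 as an alternative. The Myog and cycling classes were summed per sample and class and fitted with the sample as a block, at 50 or more cells per class. Phases were scored with scanpy 1.11.5. The SE is the log2 fold change over the root of its F value. The ± of a group mean is the SD. The edgeR steps were tested on simulated data. Each sample is 1 replicate. The labels do not say that the populations came from separate mice, so p-values measure the spread between these samples.

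The 10 genes and the gene lists were chosen with earlier results of these data known. All 10 genes are reported. Pathway genes are named where called or where the groups do not overlap, at most 6 in each direction (1 of them is not reported here), and Pearson's r picked the 3 genes most like the gene of each class with the highest mean CPM.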

Additional observations from a re-analysis of the deposited data

How the results depend on the processing

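With 3 samples a group and populations that differed widely, only large and even differences could pass. The count of genes called in old against young samples was 1. It was 219 with DESeq2, 0 without the gene list term, 0 in the longer gene list alone, and 0 to 3 with each sample left out in turn. Pathway genes called were 3 with DESeq2 and 0 otherwise. With the replicate number as a block, 1 gene was called and Ltbp2 stood at 5.95 (edgeR adjusted p = 0.434). The main fit did not use the replicate numbers as pairs. The deviations of same-numbered samples correlated at 0.378, 0.224 and -0.0814 across genes, and not every sample correlated best with its own number. With 3 samples a group, these values cannot show whether samples were handled in pairs.

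Interaction calls numbered 25 without young replicate 2 and 0 without each other sample of the longer list. Genes called between Myog classes were 5357, and 3555 to 4957 with each sample left out, the lowest without old replicate 2. Some log2 fold changes that were not past the threshold changed sign with a sample left out, and the cause was not tested. With each sample left out in turn, the old against young values lay between -0.026 and 0.23 for Tgfb3 (below 0 without young replicate 2 or old replicate 3), -0.28 and 0.80 for Tgfbr2 (below without old replicate 2), and -0.98 and 0.22 for Ltbp1 (above without young replicate 2). Interaction values lay between -0.77 and 0.19 for Tgfb1, -1.68 and 0.019 for Tgfbr2, -0.97 and 1.09 for Tgfbr3, -0.54 and 2.43 for Ltbp2, and -0.021 and 0.36 for Ltbp3. Between Myog classes they lay between -0.028 and 0.20 for Tgfbr1, -1.19 and 0.074 for Ltbp2, and -0.22 and 0.0092 for Ltbp3. Between cycling classes they lay between -0.0095 and 0.067 for Tgfbr1 and -0.019 and 0.080 for Ltbp2, and Tgfbr1 was at -0.032 with thinned counts, -0.0035 with RLE size factors and -0.0035 with DESeq2. The split by Col1a2 and the interaction with samples left out were added after the data were seen. In shares of cells, the Ltbp2 difference was 5.17 points at 2000 UMIs and 28.8 points without thinning, with the same direction.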
